A study of Mus musculus with 8 samples.

Results

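The genes described here code for the receptors that mark mitochondria for removal by autophagy and for the kinase Pink1 and its partners. They were the 9 genes Bnip3, Bnip3l, Fundc1, Bcl2l13, Phb2, Pink1, Sqstm1, Optn and Nbr1. Every spot that was not a control and carried 1 of these gene names was taken, which gave 20 of the 56605 probes on the array. Of these 20 probes, 16 had values on at least 3 of the 4 arrays of each group and were tested, with at least 1 tested probe for each of the 9 genes. The other 4 were 2 Bcl2l13 probes and 2 Nbr1 probes, and none of them was well above background on more than 1 array.

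The samples were C2C12 cells, an established mouse myoblast line, at passage 10 and proliferating. In 4 cultures the long noncoding RNA Pvt1 was silenced with antisense LNA GapmeRs, and 4 cultures received negative control GapmeRs. Both groups had been transfected with Lipofectamine 2000, so that the reagent is common to all 8 arrays. Total RNA was labelled with Cy3 and hybridized to one-colour Agilent mouse arrays, and the labels call the 4 samples of a group biological replicates. Each array measured the RNA of a whole culture, in which fewer cells of a type and less RNA per cell cannot be told apart.

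Mitophagy is the selective engulfment of mitochondria by autophagosomes. In one branch, receptors that sit in mitochondrial membranes, such as Bnip3, Bnip3l (also called Nix) and Fundc1, bind the LC3 proteins of the autophagosome directly. In the other, the kinase Pink1 gathers on damaged mitochondria and starts the attachment of ubiquitin to their outer membrane, and adaptors such as Sqstm1 (p62), Optn and Nbr1 link the ubiquitin to LC3. In skeletal muscle, Bnip3 is known as a target of FoxO3 and as part of the autophagy that accompanies atrophy.

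The GapmeRs named for the silenced group are shown first, since every comparison below rests on them. They are given as the study states them and carry no capitals. Whether each silenced culture received both is not given in the sources used here, so that the 4 silenced arrays may not all share 1 treatment.
Pvt1_1: accgtagtagagttaa
Pvt1_3: agtcaacgcttcacat
The probes of 3 genes are shown as well, because probes of the same gene gave different changes. Each line holds the last 30 of the 60 bases, and capitals mark a polyadenylation signal, AATAAA, where a probe end holds it.
Pink1 A_55_P2740739, chr4:137873943-137875912, minus strand: gcagcttgccccacaccctaacatcatccg
Pink1 A_55_P2935905, chr4:137869360-137869419, minus strand: gctaaatgcattctttatgtctaactcttt
Phb2 A_55_P2737054, chr6:124663703-124663761, plus strand: tccactttggaggaggagtagcaatttatc
Phb2 A_66_P126523, chr6:124665659-124666012, plus strand: acagaaccgaatctatctcacagctgacaa
Sqstm1 A_55_P2069714, chr11:50015985-50016044, minus strand: gtgaactccagtctctacagatgccagaat
Sqstm1 A_51_P119077, chr11:50013670-50013729, minus strand: tggtttgtaagtaacctgtAATAAAatgcc
Sqstm1 A_66_P110606, chr11:50012868-50012927, minus strand: gaccacatttctcatataaagaagacatcc
Positions are those of the deposited files, on mouse build mm9. The first Pink1 probe and the second Phb2 probe are listed over more than 60 bases of the genome and so cross an intron. Which exon or untranslated region each probe lies in was not analysed here.

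Pvt1 itself was lower on all 4 silenced arrays. Its brightest probe stood at 9.86 ± 0.30 (SD, n = 4) in controls and at 7.004 ± 0.63 (SD, n = 4) after silencing on the log2 scale, a change of -2.86 (limma, adjusted p = 0.000682). Of 8 myoblast markers, 7 were well above background on every array and Myf5 on none, and 3 were lower after silencing, Myod1 (-1.95, limma, adjusted p = 0.0013), Des (-1.35, adjusted p = 0.00374) and Cdh15 (-0.86, adjusted p = 0.0141), with a summed log2 signal of 17.1 to 17.4 in controls against 16.7 to 17.0. Of 11 markers of differentiated muscle, 7 to 9 were well above background on each control array and 7 on each silenced array, Myh2 was so on none, and 2 of the 10 tested were lower, Acta1 (-1.88, adjusted p = 0.00128) and Myh1 (at least 1.03-fold lower, adjusted p = 0.00452, well above background on 2 control arrays and no silenced one), with a summed log2 signal of 12.2 to 12.6 against 11.7 to 11.8. Of 14 transcripts abundant in liver, 3 to 4 were well above background on each control array against 9 to 10 on each silenced array, their summed log2 signal was 10.2 to 10.9 against 12.5 to 12.7, and Apoa1, Apoh, Fga and Tat stayed below that flag on all 8. Of the 5 liver transcripts tested, 3 were higher by limma, Serpina1b (1.94, adjusted p = 0.000739), Mup3 (1.26, adjusted p = 0.029) and Cyp2e1 (1.14, adjusted p = 0.0493). Apoa2, well above background on all 8 arrays, did not pass (-0.15, adjusted p = 0.821). The part of these 3 marker lists in the results below was not tested. Silenced replicate 4 was the dimmest array, with 51.6% of its spots positive and significant against 58.8% to 62.5% on the others, and control replicate 3 correlated least with its group (mean r 0.964).

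After Pvt1 silencing, 6 of the 16 tested probes of the mitophagy genes were lower and 0 were higher at an adjusted p under 0.05. The 6 belonged to Sqstm1 (2 probes), Pink1, Phb2, Bnip3l and Bcl2l13. These were 37.5% of the tested probes, beside 18.4% lower and 4.79% higher among all 28649 probes tested. The median change of the 16 probes was -0.63 on the log2 scale, against -0.19 for all probes. The methods' t-test called 2 higher and 7 lower at an unadjusted p under 0.05, beside 7.79% and 23.7% of all probes, and 0 higher and 4 lower after Benjamini-Hochberg adjustment, beside 1.98% and 9.96%. By limma with no adjustment, 2 probes were higher at p under 0.05, those of Bnip3 and the more 3′ probe of Pink1. The 4 silenced arrays lay wholly below the 4 control arrays for 7 of the 16 probes and wholly above them for 0, beside 22.6% and 5.61% of all probes.

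**Figure D1:**
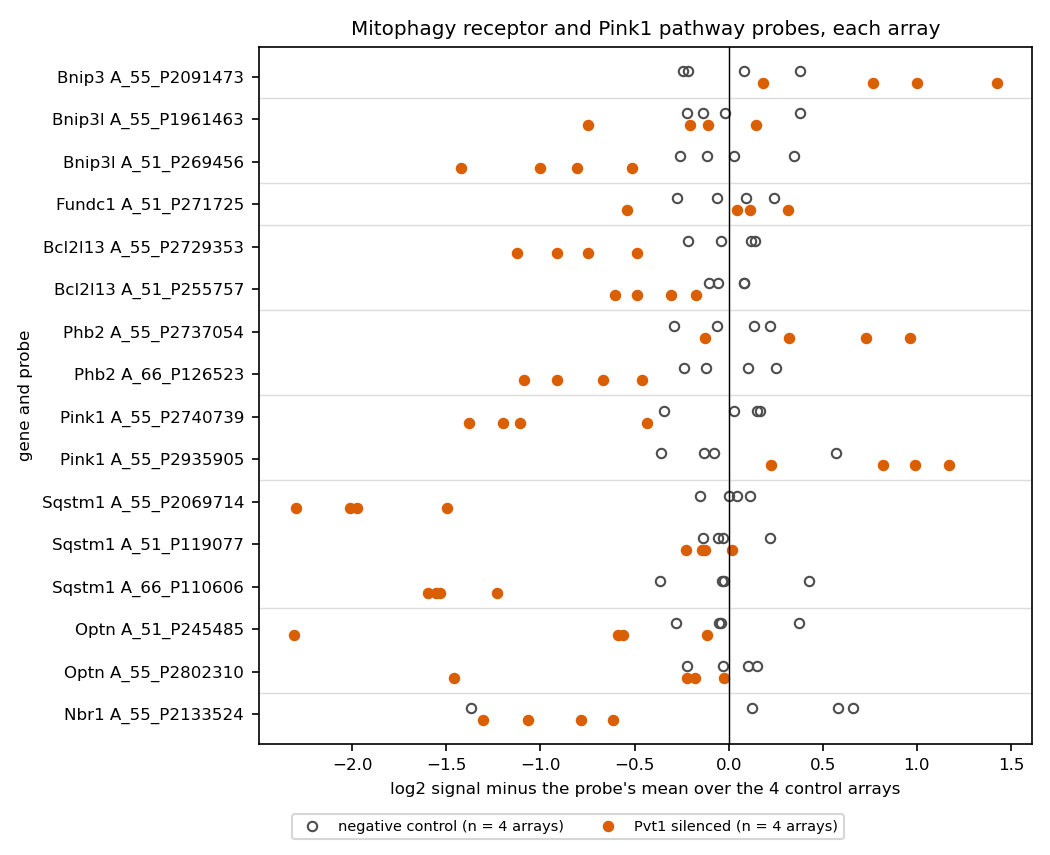
Each point is 1 array, as the log2 signal of a probe minus that probe's mean over the 4 control arrays, with open points for negative control and filled points for Pvt1-silenced cultures. The 4 silenced points of Sqstm1 A_55_P2069714 all lie far to the left of the controls (mean change -1.95), and those of Bnip3 lie to the right of 0 (mean change 0.84) with 1 of them among the controls.

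The calls on the rising side changed with the scaling of the arrays. The median change of all probes was -0.19 with quantile scaling, 0.16 with a 75th percentile shift and 0.02 with cyclic loess. The mitophagy probes called were 3 higher and 4 lower of 16 with the 75th percentile shift, beside 24.7% and 15.2% of all probes, 3 higher and 6 lower of 16 with cyclic loess, beside 18.9% and 18.4%, and 3 higher and 3 lower of 20 with the authors' series table, beside 9.86% and 9.75%. The share higher was thus below that of all probes with the shift (18.8%), close to it with cyclic loess and above it with the authors' series table (15%). Each time the 3 that were higher were that of Bnip3, the more 3′ probe of Pink1 and the more 5′ probe of Phb2. The same 3 were called higher without silenced replicate 4 (18.8%), beside 13% of all probes higher and 18.1% lower. Leaving out control replicate 2 or control replicate 4 brought the probes called lower from 6 to 2, both of Sqstm1, beside 11.3% or 11% of all probes lower and 2.45% or 2.52% higher.

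**Figure D2:**
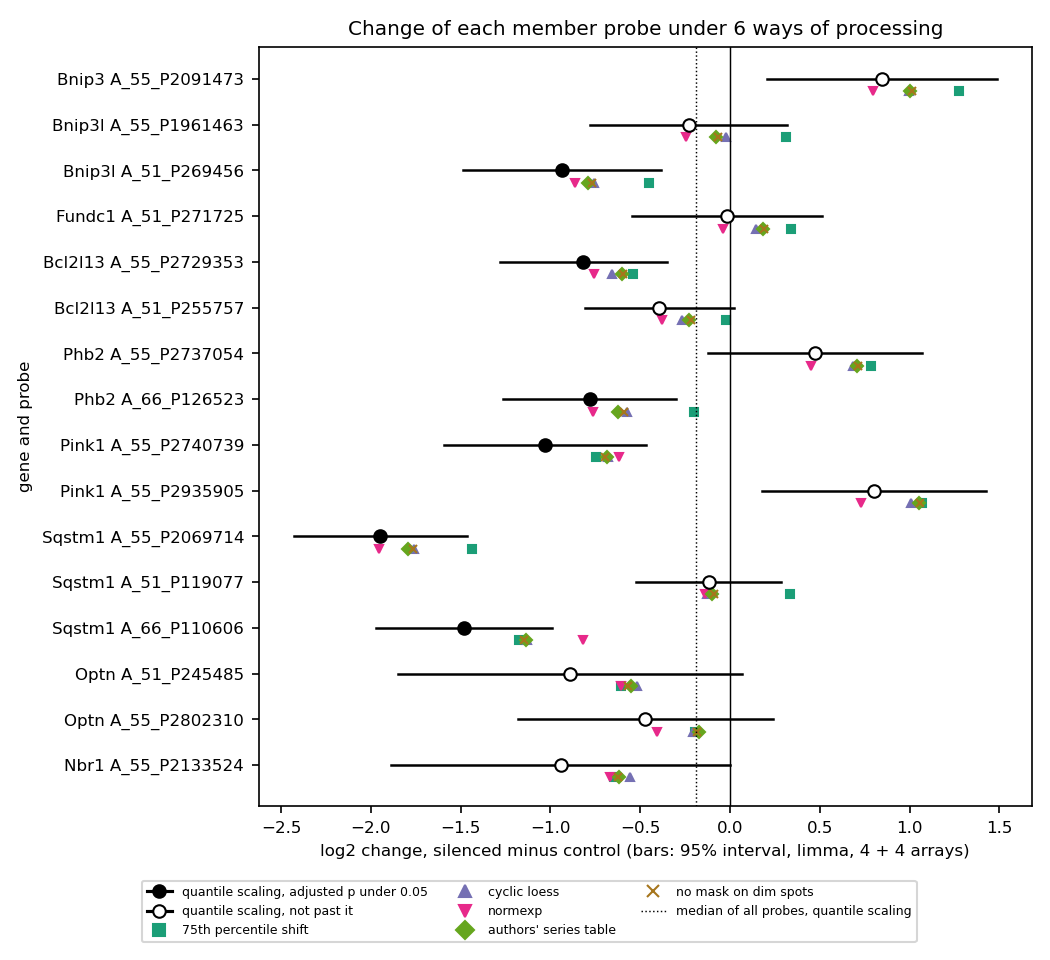
Black points and bars give the log2 change with its 95% interval under quantile scaling for the 16 tested probes (4 arrays per group), filled where the adjusted p was under 0.05, and the coloured marks give the same change under 5 other ways of processing. Bnip3 lay between 0.80 and 1.28 and Sqstm1 A_55_P2069714 between -1.96 and -1.44 under all of them, and the marks of Fundc1 fell on both sides of 0.

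Among the receptors of the outer mitochondrial membrane, Bnip3 had the largest positive change of the 16 probes under quantile scaling. Its probe A_55_P2091473, at chr7:146082760-146082819, gave 11.60, 11.63, 12.22 and 11.93 in the control cultures. After silencing it gave 12.85, 12.62, 13.27 and 12.03. The last of these, silenced replicate 4, lay below control replicate 3, and the other 3 lay above every control. The change was 0.84 (SE 0.29, 95% interval 0.20 to 1.49), or 1.80-fold, and missed the threshold (limma, adjusted p = 0.0596; exact permutation p = 0.0571). Relative to the median of all probes it was 1.04. It passed the threshold under 11 of 21 alternatives, among them all 5 other ways of scaling or masking plotted above, and without silenced replicate 4 it was 1.07 (adjusted p = 0.0116).

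Bnip3l, the close relative of Bnip3 that clears mitochondria from maturing red blood cells, was measured by 2 probes. Probe A_51_P269456 read 13.08, 13.38, 13.69 and 13.23 on control arrays and 12.34, 12.83, 11.92 and 12.54 on silenced arrays. All silenced values were below all control values, and the change was -0.94 (SE 0.25, limma, adjusted p = 0.0231). The other probe, A_55_P1961463, read from 13.24 to 13.84 in controls and from 12.71 to 13.61 after silencing, with overlap. Its change was -0.23 (adjusted p = 0.545), and the direction turned with the 75th percentile shift, to 0.31. Probe A_51_P269456 was called under 12 of 21 alternatives. The call was lost under that shift (-0.45, adjusted p = 0.203), with the authors' series table, without masking, under both blocks, by the methods' t-test after adjustment, and without control replicate 2, control replicate 4 or silenced replicate 1. The files place A_51_P269456 nearer the start of the transcript (base 772 against 1044) but give it only 12 bases of genome position, on the 3′ side of the other, so that the order of these probes is not settled.

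Fundc1, a receptor known from mitophagy under low oxygen, did not pass the test. Its probe A_51_P271725 read from 10.75 to 11.27 in controls and from 10.48 to 11.34 after silencing. The change of -0.02 (95% interval -0.54 to 0.51, adjusted p = 0.971) took the other sign with the 75th percentile shift, with cyclic loess and with the authors' series table. The highest and the lowest of the 8 values were both from silenced arrays.

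Bcl2l13, the mammalian relative in function of the yeast receptor Atg32, had 2 tested probes whose midpoints lie 288 bases apart. Probe A_55_P2729353, at chr6:120838382-120838441, read 10.56, 10.73, 10.91 and 10.89 on control arrays and 10.29, 10.03, 9.86 and 9.65 on silenced arrays. It was lower without overlap, by -0.82 (SE 0.21, limma, adjusted p = 0.0201), and kept its call under 17 of 21 alternatives. The exceptions were the 2 fits with a block and the fits without control replicate 2 or control replicate 4. Probe A_51_P255757 was also below the controls on each silenced array, from 11.18 to 11.61 against 11.68 to 11.86, with a change of -0.39 that did not pass (adjusted p = 0.159). On no array did either of the 2 untested Bcl2l13 probes rise well above background.

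Phb2, prohibitin 2, is a protein of the inner membrane that becomes a receptor for LC3 once the outer membrane has ruptured. Its more 3′ probe A_66_P126523 read 14.41, 14.64, 14.30 and 14.79 on control arrays and 13.87, 14.07, 13.45 and 13.62 on silenced arrays. The groups did not overlap, and the change was -0.78 (SE 0.22, limma, adjusted p = 0.0279). It fell to -0.20 with the 75th percentile shift (adjusted p = 0.322), and the call was lost under 9 of 21 alternatives, among them the fits without control replicate 2, control replicate 4, silenced replicate 1 or silenced replicate 3. The more 5′ probe A_55_P2737054, which the array took from an Ensembl transcript of the gene, read 9.90, 10.10, 9.67 and 10.18 in controls and 10.69, 10.28, 10.93 and 9.84 after silencing. Only silenced replicate 4 lay among the controls there, and the change of 0.47 (SE 0.27) did not pass (adjusted p = 0.233). Phb, the partner with which Phb2 forms a ring-shaped complex, changed by 0.03 at its brightest probe (adjusted p = 0.939).

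Pink1, the kinase that starts the ubiquitin branch, gave opposite values at its 2 probes. The more 5′ probe, A_55_P2740739, read 7.49, 7.998, 7.86 and 7.98 on control arrays and 6.72, 7.40, 6.64 and 6.45 on silenced arrays. It was lower without overlap, by -1.03 (SE 0.25, limma, adjusted p = 0.0168), and stayed past the threshold under 15 of 21 alternatives. With the authors' series table the change was -0.68 (adjusted p = 0.0857), and without control replicate 2 or control replicate 4 the adjusted p was 0.0565 and 0.0571. Blocking on slide row, leaving dim spots unmasked, and the methods' t-test after adjustment each lost the call too. The more 3′ probe, A_55_P2935905, read 9.08, 9.31, 10.01 and 9.36 in controls. On silenced arrays it read 10.26, 10.43, 10.61 and 9.66. Control replicate 3 and silenced replicate 4 crossed, and the change of 0.80 (SE 0.28) missed the threshold (adjusted p = 0.0654). It passed under 10 of 21 alternatives, with 0.99 both without control replicate 3 and without silenced replicate 4.

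Sqstm1, the adaptor p62 that binds ubiquitin and LC3, had the largest fall of the 9 genes. Its 5′ probe A_55_P2069714 gave 14.05, 14.25, 14.21 and 14.32 in controls. After silencing it gave 12.23, 12.71, 11.91 and 12.20. The lowest control was thus above the highest silenced value by more than the range of either group, and the change was -1.95 (SE 0.22, limma, adjusted p = 0.000673), or 3.85-fold lower. It passed the threshold under 21 of 21 alternatives, with changes from -2.10 to -1.44.

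The middle Sqstm1 probe, A_51_P119077, holds the polyadenylation signal shown above near its end. It read 15.83, 15.92, 16.19 and 15.94 in controls and 15.83, 15.99, 15.74 and 15.84 after silencing. These groups overlapped in part, with a change of -0.12 (95% interval -0.53 to 0.29, adjusted p = 0.681) that was 0.33 with the 75th percentile shift. The most 3′ probe, A_66_P110606, lies beyond that signal and read 7.37, 7.71, 8.16 and 7.69 in controls. On silenced arrays it read 6.14, 6.50, 6.18 and 6.20, and was well above background on only 1 of the 4. The change there was -1.48 (SE 0.22, adjusted p = 0.00204), past the threshold under 21 of 21 alternatives and -0.82 with normexp background correction. No probe of the 9 genes was saturated on any array.

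Optn and Nbr1, the other adaptors, did not pass the test. Optn, which Tbk1 phosphorylates, changed by -0.89 (SE 0.43, adjusted p = 0.164) at A_51_P245485 and by -0.47 (SE 0.32, adjusted p = 0.317) at A_55_P2802310. Both Optn values rested largely on silenced replicate 4, at 6.06 and 8.16 against 7.79 to 8.26 and 9.40 to 9.60 on the other silenced arrays, and without that array the 2 changes were -0.42 and -0.14. Nbr1, which resembles Sqstm1 in its domains, read 8.49, 9.03, 6.999 and 8.95 in controls and 7.30, 7.75, 7.58 and 7.07 after silencing at A_55_P2133524. Control replicate 3 was thus below all 4 silenced arrays and the other controls above them. The change was -0.94 (SE 0.42, adjusted p = 0.138), and it was -1.40 without control replicate 3 (adjusted p = 0.00416).

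The arrays lay in 2 rows of the slide, with 3 controls and 1 silenced array in row 1 and 1 control and 3 silenced arrays in row 2. Each row thus sets 1 array against 3, and the rows hold the same arrays as the whole comparison, so that agreement in sign is partly built in. Within both rows, 15 of the 16 probes changed in the direction of the whole comparison, the exception being Fundc1, beside 78.3% of the 25108 probes with values on all arrays. For Sqstm1 A_55_P2069714 the change was -1.94 in row 1 and -2.05 in row 2, for Bnip3 1.03 and 0.71, and for the more 5′ Pink1 probe -1.06 and -1.15. With the row as a block, 2 of the 6 lower probes kept an adjusted p under 0.05, both of Sqstm1. Over all probes, 2572 were called lower with that block, against 5269 without it.

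Probes of the same gene were then compared directly, as the log2 signal of the most 5′ tested probe minus that of the most 3′ one on each array. For Pink1 this difference read -1.59, -1.31, -2.15 and -1.38 in controls and -3.53, -3.03, -3.98 and -3.21 after silencing. The groups were apart, and the difference changed by -1.83 (SE 0.28, limma, adjusted p = 0.00144). For Phb2 it read from -4.63 to -4.51 in controls and from -3.79 to -2.52 after silencing, a change of 1.25 in the opposite direction (SE 0.29, adjusted p = 0.00947). Both passed under 20 of 20 alternatives, and they were the 2 called of the 6 genes with such a pair, beside 38.9% of all 6133 genes with a pair. Over all these genes the 5′ probe fell more than the 3′ probe in 70.7%, and the median change was -0.44.

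At Sqstm1 the outermost probes differed by -0.47 (SE 0.21, adjusted p = 0.112), and both had fallen. The value changed with the processing, and was -1.14 with normexp (adjusted p = 0.00172), -0.26 with the 75th percentile shift (adjusted p = 0.327), -0.61 without control replicate 3 (adjusted p = 0.0226) and -0.61 without both control replicate 3 and silenced replicate 4 (adjusted p = 0.0279). Between its 2 brightest probes, the 5′ one and the middle one, the difference read from -1.99 to -1.62 in controls and from -3.84 to -3.28 after silencing. It changed by -1.83 (SE 0.18, adjusted p = 0.000309), in a comparison of the 2 brightest probes of each gene that was added after the values were seen and called 40.5% of 6089 genes. The changes of the difference at Bcl2l13 (-0.42, adjusted p = 0.105) and Optn (-0.42, adjusted p = 0.153) did not pass, although that at Bcl2l13 was called under 1 of 20 alternatives, the 75th percentile shift (-0.52, adjusted p = 0.0415). That at Bnip3l was 0.71 by genome order (adjusted p = 0.108). It was 0.42 without silenced replicate 3 (adjusted p = 0.193), 0.92 without silenced replicate 4 (adjusted p = 0.0414) and 0.93 without both control replicate 3 and silenced replicate 4 (adjusted p = 0.0391), the latter 2 being those of 20 alternatives that called it.

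**Figure D3:**
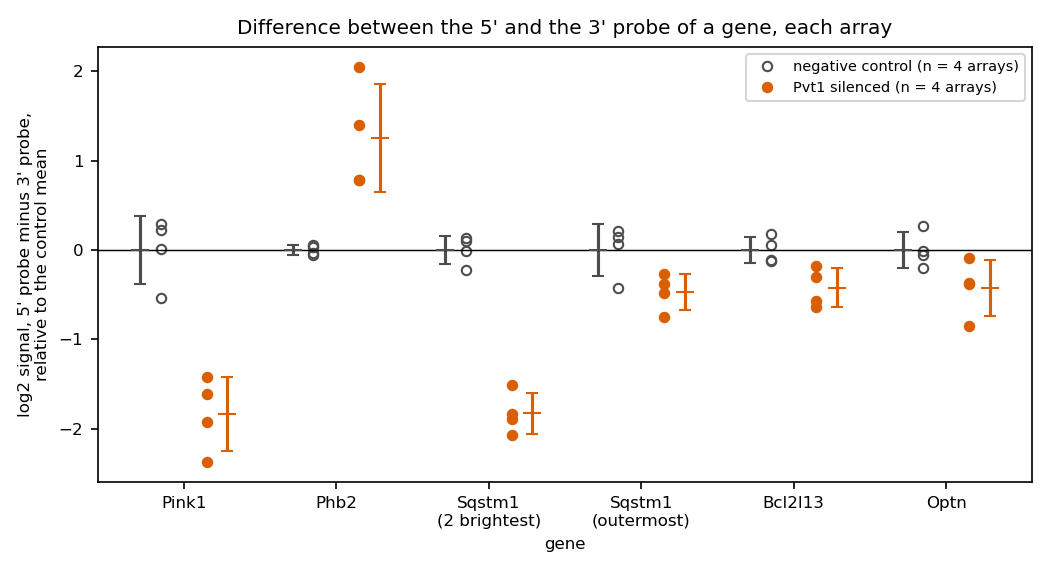
Each point is 1 array, as the log2 signal of the more 5′ probe minus that of the more 3′ probe, drawn relative to the control mean, and the bars give the mean and SD of 4 arrays. Silenced points of Pink1 and of the 2 brightest Sqstm1 probes lie below all controls (mean changes -1.83 and -1.83), those of Phb2 lie above them (1.25), and the other 3 pairs drawn changed by -0.47 to -0.42. Bnip3l, whose probe order is not settled, is not drawn.

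The remaining genes of the pathway were described through 72 genes in 7 lists by role, each by its brightest tested probe. Of the 71 tested, 14 were lower and 1 was higher, or 19.7% and 1.41%, beside 13.4% lower and 6.68% higher of the 14669 named genes tested in this way. Their median change was -0.10 against -0.05 for all named genes. The count on the rising side depended on scaling here too, with 24 higher and 8 lower under the 75th percentile shift, beside 32.4% and 9.84% of all named genes, and 10 higher and 12 lower under cyclic loess, beside 24.7% and 13.7%. With control replicate 3 left out 3 were higher and with silenced replicate 4 left out 5 were, and without control replicate 2, control replicate 4, silenced replicate 1 or silenced replicate 3 the number lower was 7 each time, and without control replicate 1 it was 8. Of all named genes, 8.73% and 17.2% were higher without control replicate 3 or silenced replicate 4, and 7.41% to 11.3% were lower without control replicate 1, 2 or 4 or silenced replicate 1 or 3.

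Of 8 tested receptors and adaptors outside the 9 genes, 3 were lower and the others did not pass. Fkbp8, a receptor of the outer membrane that binds LC3, fell by 1.99 on the log2 scale (SE 0.22, limma, adjusted p = 0.000682), from 14.84 ± 0.25 to 12.85 ± 0.29 (SD, n = 4 in each group). The ubiquitin-binding adaptor Tax1bp1 fell by 1.28 and Calcoco1, of the same family, fell by 1.30 (adjusted p = 0.00628 and 0.00729). Fkbp8 was called under 21 of 21 alternatives and the other two under 20.

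The Bcl-2 family partners held the only gene of the 71 called higher by limma under quantile scaling. Bcl2l1, which codes for the survival protein Bcl-xL, went from 12.95 ± 0.20 to 13.89 ± 0.27 (SD, n = 4), a change of 0.95 (adjusted p = 0.0119) called under 20 of 21 alternatives and 1.47 with the 75th percentile shift. Bcl2 fell by 1.06 (adjusted p = 0.00905), called under 20 of 21, and Becn1, the autophagy protein that Bcl2 binds, fell by 1.06 with overlap between groups (adjusted p = 0.042) and was called under 9 of 21. The study itself reports, by quantitative PCR and western blot in silenced C2C12 cells, more Bcl-2 and less Beclin 1. The Bcl2 probe thus went the other way here, and the reason was not tested. Rheb and Mcl1 did not pass.

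Among 9 genes for kinases of the pathway and their subunits, 4 were lower. Src, which phosphorylates Fundc1, fell by 1.38 (adjusted p = 0.045), and its call held under 7 of 21 alternatives. Tbk1, the kinase of Optn and Sqstm1, fell by 1.01 (adjusted p = 0.00847) and was called under 21 of 21. Csnk2a2 and Tgfbr1 were the other two, at -0.77 and -0.69, called under 10 and 11 of 21. With the 75th percentile shift Csnk2a2 was at -0.36 (adjusted p = 0.255) and Tgfbr1 at -0.42 (adjusted p = 0.041). Tbk1, Csnk2a2, Tgfbr1 and the genes Huwe1, Parl and Timm50 lie outside the rule for naming and were named after their values were seen, as were the uncalled genes Phb, Rheb, Mcl1, Hif1a, Tfe3 and Tfeb.

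Of 11 transcription factors, 2 were lower and the others did not pass. Trp53 fell by 1.38 (adjusted p = 0.0355), a call that held under 8 of 21 alternatives, and Nrf1, a regulator of mitochondrial genes, fell by 1.13 (adjusted p = 0.0158), which held under 19 and was at -0.75 with the 75th percentile shift. Of 18 genes for the import and processing of Pink1, 2 were lower, the protease gene Parl at -0.60 (adjusted p = 0.0405), called under 11 of 21 and at -0.12 with the 75th percentile shift (adjusted p = 0.552), and the translocase gene Timm50 at -0.77 (adjusted p = 0.0377), called under 9 of 17 and whose sign turned with the authors' series table (0.34). Of 13 ubiquitin enzymes, 1 was lower, the ligase gene Huwe1 at -0.94 (adjusted p = 0.0072), called under 21 of 21 and at -0.43 with the 75th percentile shift. Of 7 outer membrane proteins that are tagged with ubiquitin in this pathway, 0 passed the limma test, with 1 higher and 1 lower at an unadjusted p under 0.05, and by the methods' t-test also 1 and 1 unadjusted and 0 adjusted.

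**Figure D4:**
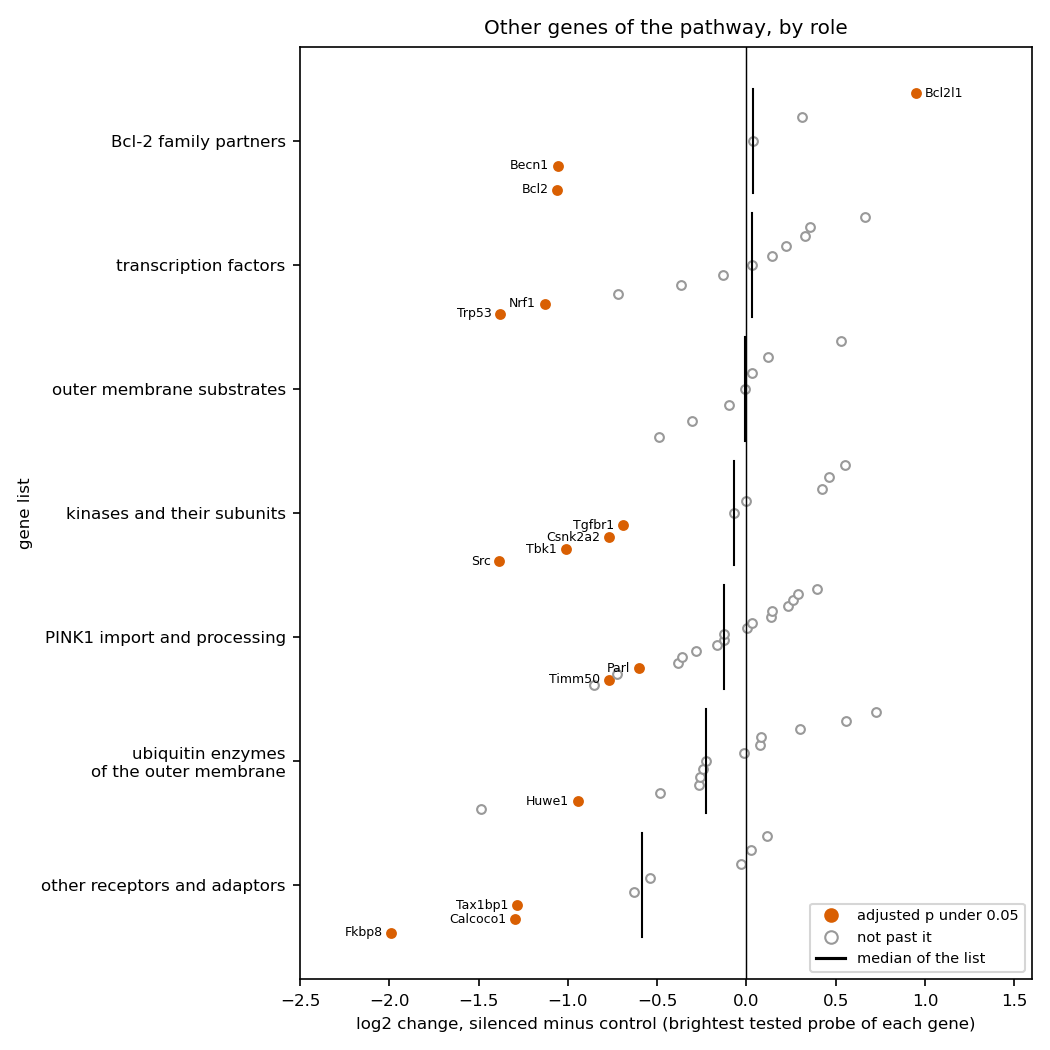
Each point is 1 gene of the pathway lists at its brightest tested probe, placed by its log2 change (silenced minus control, 4 arrays per group), with filled points for an adjusted p under 0.05 and a black line for the median of each list. The 14 filled points on the left run from -1.99 (Fkbp8) to -0.60 (Parl), and the 1 on the right is Bcl2l1 at 0.95.

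The promoters of the genes were searched for 2 motifs of transcription factors that act on mitophagy and autophagy genes. RefSeq (GRCm38.p6) gave 9 promoters, from 250 bases before to 50 after the start, for 8 of the 9 genes. Bnip3l had no entry. ACGTG, the core of the hypoxia response element, was in 3 of the 9 on either strand, beside 19.6% of 32851 promoters. CACGTG, the E-box of Myc and of the TFEB family, holds ACGTG on both strands and was in 1 of the 9, that of Bnip3, beside 7.15%. The E-box of Bnip3 begins 108 bases before the start and is in capitals below, shown because it is the only such element among the 9 promoters.
Bnip3 promoter, chr7:138909597-138909626 on GRCm38.p6, minus strand: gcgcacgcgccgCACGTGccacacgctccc
Of the factor genes on the lists, those for the hypoxia factors and the TFEB family did not pass the test at their brightest probe, and Myc was not among the genes listed. Hif1a changed by 0.36 (adjusted p = 0.482), Tfe3 by 0.33 (adjusted p = 0.337) and Tfeb by -0.72 (adjusted p = 0.0612).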

How the data were processed

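The deposited scanner files hold 1 array each, with intensity per spot (the processed signal, background-subtracted by the Agilent Feature Extraction software) and flags for each spot. The submitters' notes give version 10.7.3.1 of that software and the file headers 12.0.0.7. The deposited series table holds the authors' normalized intensities, of which the log2 was taken here. It was used as an alternative only. Following the study's methods, spots that were not positive and significant were set to missing, log2 intensity was quantile normalized, and spots of a probe were averaged. Outlier spots were left out. Probes with at least 3 values per group were fitted with limma 3.58.1 in R 4.3.3 on group alone, with Benjamini-Hochberg adjustment over all probes at 0.05 and 2-sided tests. Exact permutation tests over the 8 arrays cannot go below p = 0.0286. P-values measure only the spread between these samples, and 4 arrays per group limit precision. The steps were tested on simulated data. Alternatives were a 75th percentile shift, cyclic loess, normexp, no masking, stricter filters, blocks, another prior, the methods' t-test (unequal variance, as the study names it for these arrays, with the Benjamini-Hochberg step added here) and leaving out each array. Leaving out control replicate 3 with silenced replicate 4, and comparing the 2 brightest probes, were added after seeing the data. The members and lists were chosen with earlier results of these data known. One further gene of the rule is not reported here. Named were all members described, Pvt1, and up to 8 rises and 8 falls among called pathway genes, with further genes named in the text as exceptions. Figures were drawn with matplotlib 3.10.9.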

Additional observations from a re-analysis of the deposited data

Results flagged for a closer look

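Of 46 groups of 4 arrays examined, 2 held an array far from the other 3, and chance flags about 1 in 20 groups. At Optn A_55_P2802310, silenced replicate 4 read 8.16 on the log2 scale against 9.40 to 9.60 on the other silenced arrays. At Sqstm1 A_66_P110606, silenced replicate 2 read 6.50 beside 6.14 to 6.20 for the rest of its group, and it was still below the lowest control, at 7.37.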

How the results depend on the processing

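Pvt1 was called lower under all 20 alternatives that held its brightest probe, from -3.14 to -2.19 (-3.14 to -2.66 when single arrays were left out). Under the alternatives, the probes of the mitophagy genes (16, or 20 without masking and in the series table) were called 3 higher and 4 lower with the 75th percentile shift, 3 and 6 with cyclic loess, 2 and 6 with normexp, 3 and 3 with the authors' series table and without masking, 1 and 6 among probes well above background on at least 4 arrays, 0 and 2 under a block for slide row, 2 and 6 with the robust trended prior, 2 and 7 by the methods' t-test unadjusted, and 3 and 7 without control replicate 3 and silenced replicate 4 together. Leaving out 1 array gave 0 to 3 higher and 2 to 7 lower. The counts over all probes under the same settings are given below.

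The pathway genes were called 24 higher and 8 lower with the 75th percentile shift, 10 and 12 with cyclic loess, 2 and 16 with normexp, 11 and 9 with the authors' series table and without masking, 2 and 15 with the background filter, 2 and 13 with all 8 values, 0 and 5 with the slide row, 3 and 15 with the robust prior, 4 and 17 by the t-test unadjusted, 1 and 5 by it adjusted, and 10 and 17 without both doubted arrays. Leaving out 1 array gave 1 to 5 higher and 7 to 14 lower.

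Over all probes, 1373 higher and 5269 lower became 7075 and 4365 with the 75th percentile shift, 5416 and 5258 with cyclic loess, 4509 and 4461 with the authors' series table, 4990 and 4787 without masking, 534 and 2572 with the slide row, 2232 and 6789 by the t-test unadjusted, 566 and 2854 by it adjusted, and 5384 and 6805 without both doubted arrays. These counts were 1576 and 5430 with normexp, 1345 and 5053 with the background filter, and 1855 and 5651 with the robust prior. Leaving out 1 array gave 658 to 3653 higher and 3013 to 5842 lower, and 1598 to 2938 genes with a called difference between probes (2385 with all arrays).

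The sign turned for Bnip3l A_55_P1961463 (0.31 with the 75th percentile shift, 0.069 without both doubted arrays), Sqstm1 A_51_P119077 (0.33 with that shift), Timm50 (0.34 with the authors' series table) and Fundc1 (0.34 with that shift, 0.15 with cyclic loess, 0.18 with the authors' series table, 0.19 without masking, 0.0668 without both doubted arrays, and -0.13 to 0.16 with 1 array left out). The causes were not tested. Replicate numbers did not pair the samples, since same-numbered arrays correlated at -0.02, 0.15, 0.20 and 0.06 in their deviations and only numbers 2 and 3 fitted their own number best. With the replicate number as a block, 0 probes of the mitophagy genes were higher and 3 lower, against 0 and 6 without it. Over all probes the counts were 1023 and 3994 with that block, against 1373 and 5269 without it. Signal near background limits the most 3′ Sqstm1 probe.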
